A study of Homo sapiens with 15 samples.

Results

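SW480, an established human colorectal cancer cell line that the labels class as intestinal epithelial, was profiled by RNA sequencing with and without a short hairpin RNA, delivered by lentivirus, against the long non-coding transcript PINT, listed as LINC-PINT (ENSG00000231721). The comparison described here is the hairpin against control in the absence of lipopolysaccharide (LPS). The control group is wild-type SW480, and the PINT shRNA1 group is SW480 with the hairpin, which the labels call a stable knockdown; both had 4 h of exposure without LPS, with PBS in its place. Members were chosen by RNA number: 3 control columns and 3 PINT shRNA1 columns of the deposited table, which is 6 of the 12 libraries analysed and stands for 9 of 15 labelled samples, because 2 samples carry each PINT shRNA1 number while the table holds 1 column for it. Whether such a column is 1 of its 2 samples or both is not recorded. A second pair of groups, SW480 with LPS at 1 µg/ml for 4 h and PINT shRNA1 with the same LPS, has 3 libraries each and is used below only to show the same genes in libraries that the comparison does not share. No control with another hairpin is named in the labels, so the target of the hairpin, the lentiviral vector and the derivation of a stable line cannot be told apart, and they do not say whether the 3 libraries of a group are separate cultures.

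PINT is a long intergenic non-coding RNA, described as a p53-induced transcript, and the title of the study links it to p65, a subunit of NF-kB, and to the Polycomb methyltransferase EZH2. A short hairpin RNA is transcribed from an integrated lentiviral vector, processed by the cell's microRNA machinery and used to guide cleavage of matching transcripts. The question of the comparison is which transcripts differ in unstimulated cells that carry the hairpin.

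Values are FPKM (mapped fragments scaled to transcript length and library size) as the authors deposited them. Of 57905 listed genes, 16403 reached 0.5 FPKM in 3 or more of the 6 libraries and were tested with limma on log2(FPKM + 0.5). A gene is called higher or lower in PINT shRNA1 at a Benjamini-Hochberg adjusted p under 0.05 over all genes tested. Levels are given per library or as mean ± SD over 3 libraries, and differences as log2 fold changes ± SE, PINT shRNA1 minus control, on the log2(FPKM + 0.5) scale, where the change of a gene of low level comes out too small. The number of reads behind a value is unknown. Depth could be estimated through the step sizes of low values, and with control replicate 1 at 1 it was 0.8093 to 1 in control and 0.914 to 1.048 in PINT shRNA1. Each estimate is the most frequent ratio to control replicate 1, which 35 to 50 of 5456 to 6379 ratios shared. Libraries of a group correlated (log2 values) at 0.9828 to 0.9846 in control and 0.9877 to 0.9887 in PINT shRNA1, and no library stood apart. Colon epithelial markers were present in every library, with EPCAM at 203, 205 and 207 FPKM in control and 141, 145 and 143 in PINT shRNA1 and CDX2, the intestinal homeobox factor, at 9.88, 9.01 and 11.7 and 12.8, 12.3 and 15. VIL1, villin, was at 11.4, 11.1 and 11.2 FPKM in control and 3.99, 4.11 and 4.53 in PINT shRNA1. CDX1 was listed at 0 in all 6 libraries, and KRT20, MUC2, LGALS4 and CDH17 were below 0.2 FPKM in each. Among the markers chosen, the label of intestinal epithelial cell thus rests on the general epithelial markers, CDX2 and VIL1.

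The targeted gene was examined first, and it went against the label. LINC-PINT was at 2.88, 2.56 and 2.51 FPKM in control and at 4.55, 5.26 and 5.34 in PINT shRNA1. All 3 libraries labelled with the hairpin were above all 3 control libraries. The log2 fold change was 0.81 ± 0.0976 (limma, adjusted p = 0.00317), and an exact two-sided permutation test gave p = 0.1, the smallest that 3 against 3 libraries can give. MKLN1, the neighbouring gene, was at 12.2, 11.1 and 7.59 FPKM in control and at 12, 12.7 and 11 in PINT shRNA1. Its groups overlapped, and it was not called (0.22 ± 0.169, limma adjusted p = 0.388; exact permutation p = 0.5). PINT shRNA1 therefore stands below only for the libraries so labelled, whose directions are not those of a gene shown to be depleted. Whether labels or columns were exchanged, which would turn each direction below, was not tested, nor whether the hairpin's site lies in the exons counted.

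The difference between the 2 groups was broad and mostly small. Of the 16403 genes, 3685 were called (22.5% called), 2246 of them higher (13.7% of genes tested) and 1439 lower (8.77%). The median log2 fold change was 0.44 among the genes called higher, -0.46 among those called lower and 0.056 over all genes tested, and 148 genes called higher and 79 called lower differed by at least 1 on the log2 scale. The groups did not overlap for 6927 genes (42.2% called by that rule alone). When the libraries were scaled to a common median, 1761 genes were higher and 1687 lower, and after quantile normalization 1723 and 1747, against 2468 and 1303 with every library rescaled to the same FPKM total and 2042 and 1531 with that total taken without mitochondrial genes, so the split between higher and lower calls depended on the scaling. Leaving out PINT shRNA1 replicate 1, 2 or 3 left 2025, 2224 or 2162 genes called, and leaving out a control library left 2516 to 2651. Since these are bulk libraries, fewer cells that express a gene and less RNA per cell cannot be told apart.

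**Figure D1:**
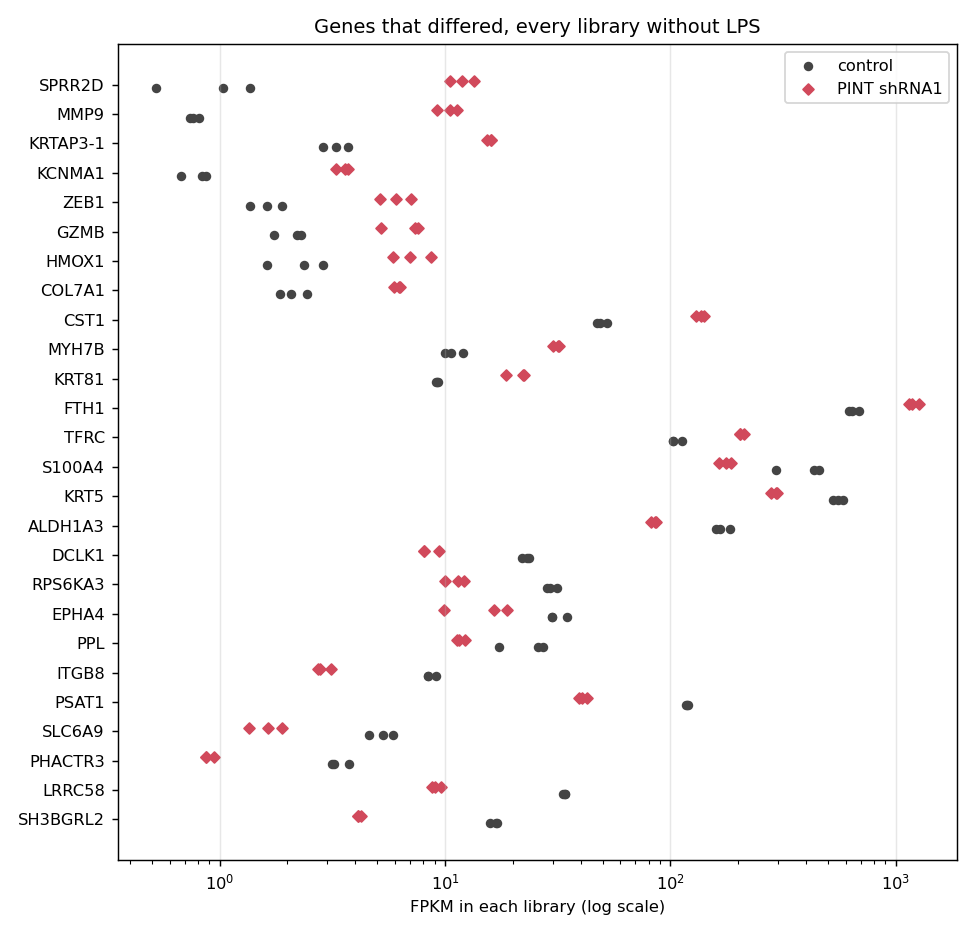
FPKM of 26 genes described below in each of the 6 libraries (log axis), circles for control and diamonds for PINT shRNA1, with genes higher in PINT shRNA1 above and lower genes below. For each gene all 3 diamonds lie on the same side of all 3 circles, which was required of genes named by fold change or FPKM difference.

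Genes with the largest increases, named only where the groups did not overlap and varied little within groups, included several that belong to other tissues. SPRR2D, a cornified envelope protein of skin, was at 0.521, 1.36 and 1.04 FPKM in control and at 10.5, 11.8 and 13.4 in PINT shRNA1. KRTAP3-1, a keratin-associated protein of hair, was at 3.29, 2.88 and 3.72 FPKM in control and at 15.9, 15.4 and 16 in PINT shRNA1. MYH7B, a muscle-type myosin heavy chain, was at 10.05, 12 and 10.6 FPKM in control and at 30.2, 31.9 and 32 in PINT shRNA1. The lowest PINT shRNA1 library was above the highest control library, a condition of the naming. The log2 fold changes were 3.12 ± 0.223, 2.11 ± 0.093 and 1.49 ± 0.0759. The keratin pseudogene KRT41P (1.56 ± 0.101), the secreted cystatin gene CST4 (1.53 ± 0.238), the phospholipase gene PLA2G4D (1.55 ± 0.1003) and LRRC55 (1.48 ± 0.107), an auxiliary subunit of BK-type potassium channels, rose from about 1 FPKM or less. CST1, another cysteine protease inhibitor of the cystatin family, was abundant from the start and went from 49.4 ± 2.38 to 136 ± 5.19 FPKM (1.45 ± 0.0518, limma adjusted p = 5.85e-05).

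Of the genes named for their fold change, KCNMA1 and KCNA6 encode potassium channels, for which no list was counted. KCNMA1, the pore-forming subunit of the BK channel, was at 0.839, 0.867 and 0.672 FPKM in control and at 3.59, 3.29 and 3.7 in PINT shRNA1. KCNA6, a Shaker-type channel, was at 1.52, 1.54 and 1.51 FPKM in control and at 4.53, 5.18 and 5.81 in PINT shRNA1. The groups were separate for both genes, as the naming required (1.64 ± 0.108 and 1.48 ± 0.106), and their levels stayed below 6 FPKM. KCNJ4, an inward rectifier channel, went the other way and was at 3.57, 3.97 and 3.11 FPKM in control and at 1.07, 1.03 and 1.06 in PINT shRNA1 (-1.38 ± 0.11).

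GZMB, the cytotoxic protease granzyme B, was at 2.21, 1.74 and 2.29 FPKM in control and at 5.19, 7.56 and 7.37 in PINT shRNA1 (1.47 ± 0.163). Separate groups were a condition of its naming. The defining leukocyte marker PTPRC was at 0, 0 and 0.00504 FPKM in control and 0, 0 and 0.0713 in PINT shRNA1, and CD3E at 0.0851, 0.092 and 0.0677 and 0.29, 0.395 and 0.568. Of 9 leukocyte markers 3 were tested and 1, CD68, was called higher (0.64 ± 0.112), with 0.81, 0.677 and 0.766 FPKM in control and 1.32, 1.57 and 1.46 in PINT shRNA1. The summed level of the 9 markers was 3.545 to 4.89 FPKM over control libraries and 4.319 to 6.044 over those of PINT shRNA1, ranges that overlapped. Of 12 fibroblast and endothelial markers 1 was tested and none was called. Their summed level, 0.8007 to 1.099 FPKM over control libraries and 1.247 to 1.529 over those of PINT shRNA1, did not overlap. COL1A1, a collagen of fibroblasts, was at 0.483, 0.433 and 0.569 and 0.736, 0.959 and 0.812 FPKM. PDGFRB, a receptor of pericytes, was at 0.0858, 0.0547 and 0.0654 and 0.228, 0.163 and 0.124. Both were higher without overlap, as was THY1 (0.0788, 0 and 0.0428 and 0.102, 0.0841 and 0.0819). VWF was lower without overlap, at 0.322, 0.278 and 0.275 and 0.189, 0.167 and 0.144. Over all genes tested, the groups did not overlap for 42.2%, so such a gap is common here. PDGFRB, THY1 and VWF were below the level at which genes were tested. CLDN5 and KDR overlapped, and DCN, COL3A1 and CDH5 were at or near 0. The part of other cell types in these values was not tested. MLPH, a melanosome transport adaptor, rose as well, from 0.735 ± 0.334 to 2.82 ± 0.268 FPKM (1.46 ± 0.195).

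The genes with the largest decreases had varied roles. SH3BGRL2, a small SH3-binding protein, was at 15.8, 17.1 and 16.9 FPKM in control and at 4.26, 4.1 and 4.09 in PINT shRNA1. LRRC58, a leucine-rich repeat protein, was at 33.9, 33.3 and 34.1 FPKM in control and at 9.56, 8.99 and 8.77 in PINT shRNA1. PHACTR3, a phosphatase and actin regulator, was at 3.14, 3.76 and 3.23 FPKM in control and at 0.946, 0.869 and 0.867 in PINT shRNA1. DCLK1, a microtubule-associated kinase known as a marker of intestinal tuft cells, was at 23, 23.6 and 22 FPKM in control and at 9.4, 8.06 and 8.04 in PINT shRNA1. Separate groups with narrow ranges were a condition of naming these 4 genes. They differed by -1.88 ± 0.0637, -1.84 ± 0.0538, -1.47 ± 0.104 and -1.38 ± 0.0764. RPS6KA3, the ERK-activated kinase RSK2, was at 28.4, 31.3 and 29.2 FPKM in control and at 11.5, 12.1 and 9.97 in PINT shRNA1 (-1.37 ± 0.083). SAA2, an acute-phase apolipoprotein, went from 78.9 ± 0.337 to 30.6 ± 1.88 FPKM (-1.36 ± 0.0532), and EMP2, a tetraspan membrane protein, from 17.8 ± 0.165 to 6.46 ± 0.455 FPKM (-1.39 ± 0.0678). Over the processing alternatives none of these 7 genes lost its call.

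Some of the genes with large fold changes share exons with another listed gene, so the share of reads given to each is uncertain. BCL2L2, an antiapoptotic BCL2 family member whose exons are shared with the readthrough gene BCL2L2-PABPN1, was at 3.15, 3.89 and 2.17 FPKM in control and at 11.2, 10.8 and 10.4 in PINT shRNA1 (1.69 ± 0.175). In the LPS libraries it was at 10.9, 2.87 and 2.4 FPKM, and at 5.23, 9.83 and 1.91 with hairpin and LPS, so that single libraries of the same group differed as much as the groups without LPS did. TMEM189, which has a readthrough with its neighbour UBE2V1, was at 11.5, 14.6 and 9.34 FPKM in control and at 48.5, 52.2 and 37.9 in PINT shRNA1 (1.93 ± 0.179) but at 45.1, 12.3 and 8.74 in LPS and 8.89, 8.54 and 9.41 with hairpin and LPS. AKAP2, an anchoring protein gene with exons in common with PALM2-AKAP2, was at 10.8, 10.4 and 11.2 FPKM in control and at 1.39, 1.93 and 2.87 in PINT shRNA1 (-2.18 ± 0.1997), against 11.4, 10.9 and 5.998 in LPS and 1.66, 6.21 and 6.14 with hairpin and LPS. Libraries of 1 group were split in the pair with LPS for each of these 3 genes. Without LPS the groups were separate, which was a condition of naming them. ZNF8, a zinc finger gene listed under 2 identifiers, was higher under ENSG00000083842 (from 0.00100, 0.650 and 0.00340 FPKM in control to 4.09, 3.17 and 1.56) and lower under ENSG00000273439 (from 3.97, 3.67 and 3.56 to 1.01, 1.16 and 1.12), so it has no single direction. With all genes left out that share at least 10% of their exon bases with another expressed gene, 3370 genes were called.

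**Figure D2:**
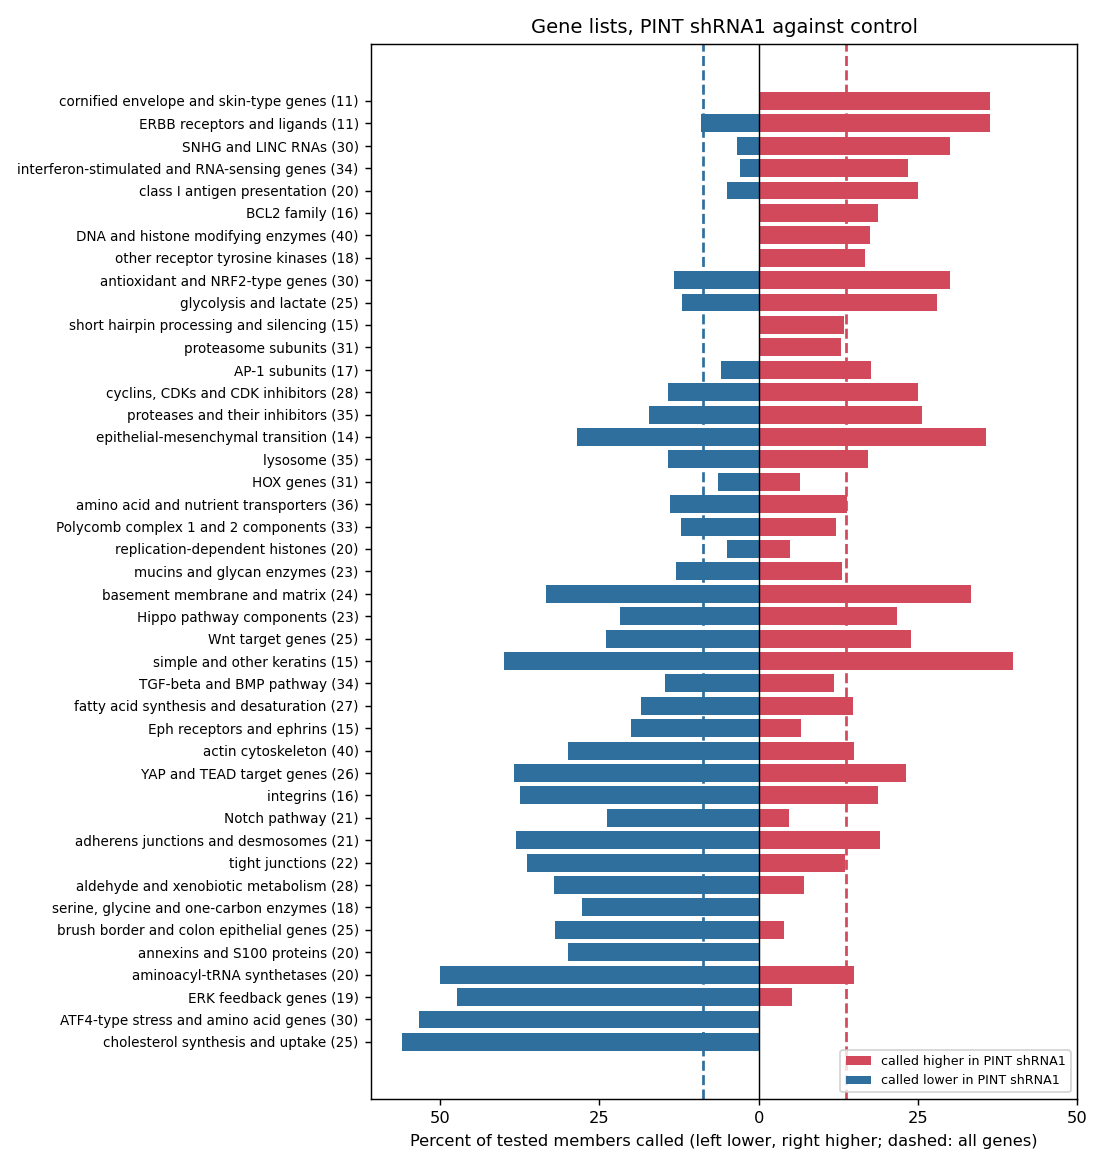
Percent of the tested members of each gene list called lower (bars to the left) or higher (bars to the right) in PINT shRNA1, with the number tested in brackets and dashed lines at the percent of all genes tested called in each direction. The bars reach farthest to the left for cholesterol synthesis, ATF4-type and aminoacyl-tRNA synthetase genes, and farthest to the right for keratins, while keratins, basement membrane and integrin genes have long bars on both sides.

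Amino acid genes were lower far more often than higher. ATF4 is a transcription factor whose translation rises when amino acids run short or the endoplasmic reticulum is stressed, and its targets make, import and charge amino acids. Of 30 tested ATF4-type stress and amino acid genes, 16 were lower and 0 higher, beside 8.77% and 13.7% of all genes, with a median of -0.33. ATF4 itself went from 103 ± 4.35 to 73.6 ± 13.7 FPKM (-0.49 ± 0.133), a call that ended in 8 of 20 processing alternatives, among them leaving out any control library or PINT shRNA1 replicate 3. SLC7A5, the large neutral amino acid transporter, was at 192, 188 and 175 FPKM in control and at 93.1, 92.4 and 103 in PINT shRNA1. SLC6A9, a glycine transporter, was at 5.87, 5.31 and 4.61 FPKM in control and at 1.64, 1.35 and 1.9 in PINT shRNA1. SLC7A11, the cystine importer, was at 5.03, 5.15 and 5.08 FPKM in control and at 2.33, 1.5 and 1.47 in PINT shRNA1. Each of the 3 transporters was lower in every PINT shRNA1 library than in any control library (-0.94 ± 0.0598, -1.44 ± 0.134 and -1.32 ± 0.153). SLC7A1, which carries cationic amino acids, was lower as well (-0.47 ± 0.0401), whereas SLC1A5, SLC3A2 and SLC43A1 were not called.

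Enzymes and regulators of the same list followed. PCK2, the mitochondrial phosphoenolpyruvate carboxykinase, went from 19.6 ± 1.8 to 10.5 ± 0.631 FPKM (-0.87 ± 0.0851). ASNS, asparagine synthetase, was at 67.6, 78.1 and 77.5 FPKM in control and at 56, 42.4 and 40.2 in PINT shRNA1, with the first PINT shRNA1 library closest to control but still below it (-0.69 ± 0.13). CHAC1, a glutathione-degrading enzyme of the stress response, was at 1.39, 1.64 and 2.13 FPKM in control and at 0.623, 0.53 and 0.413 in PINT shRNA1 (-1.11 ± 0.161). Among the regulators, JDP2, a bZIP repressor, was lower by the largest amount, from 8.31 ± 0.955 to 3.04 ± 0.811 FPKM (-1.33 ± 0.173), and DDIT3, the factor CHOP, went from 9.34 ± 1.13 to 6.05 ± 0.531 FPKM (-0.58 ± 0.11). TRIB3 (-0.39 ± 0.093), CEBPG (-0.38 ± 0.0457) and CEBPB (-0.33 ± 0.0762) had smaller decreases, and the calls of TRIB3 and CEBPB ended in 7 and 6 alternatives, mostly when single libraries were left out. ATF3, ATF5, SESN2, DDIT4 and VEGFA, other stress-responsive members, were not called. The count of 16 lower genes ranged from 11 to 16 over the alternatives, and 1 member was higher without PINT shRNA1 replicate 2.

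Aminoacyl-tRNA synthetases, which attach amino acids to their tRNAs, did not move as 1 group. Of 20 tested cytosolic synthetase genes 10 were lower and 3 higher, with a median of -0.18. AARS, for alanine, was at 32.6, 31.8 and 32.2 FPKM in control and at 19.4, 17.7 and 18 in PINT shRNA1. YARS, for tyrosine, was at 41.1, 41.9 and 42.6 FPKM in control and at 30.7, 24.7 and 27.1 in PINT shRNA1. IARS, for isoleucine, was at 80.1, 87.7 and 82.5 FPKM in control and at 62.3, 59.1 and 53.4 in PINT shRNA1. No PINT shRNA1 library reached the control range of these 3 genes (-0.79 ± 0.0532, -0.60 ± 0.0802 and -0.52 ± 0.0675). HARS, for histidine (0.49 ± 0.0468), LARS, for leucine (0.30 ± 0.0683), and KARS, for lysine (0.27 ± 0.0634), were the 3 members called higher, a number that became 1 when control replicate 2 or PINT shRNA1 replicate 3 was left out. Serine and one-carbon enzymes were lower in 5 of 18 tested members and higher in 0 (1 without PINT shRNA1 replicate 3). PSAT1, which makes phosphoserine, was at 117, 119 and 120.3 FPKM in control and at 42.5, 40.7 and 39.2 in PINT shRNA1 (-1.53 ± 0.0441), and SHMT2, the mitochondrial serine hydroxymethyltransferase, at 97.3, 90.9 and 89 FPKM in control and at 58.5, 47.3 and 57.1 in PINT shRNA1 (-0.77 ± 0.0871). MTHFD1L (-0.58 ± 0.077), a mitochondrial folate enzyme, and PHGDH (-0.42 ± 0.0637), which starts serine synthesis, fell as well, while the median of the list was -0.066.

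ATF4 binds composite C/EBP-ATF elements, and the core letters TGATGNAA were searched on both strands in RefSeq promoters (GRCh38.p14, 250 bases before to 50 after each start). Of the ATF4-type genes, 26 had a promoter in the table and 9 held the letters (34.6%). The synthetases had 7 of 16 (43.8%) and the serine and one-carbon enzymes 1 of 14 (7.14%), against 4.46% of all 27303 symbols. Of the synthetase genes with a promoter, 5 of the 9 called lower and 0 of the 2 called higher held them. Of the 14 ATF4-type genes called lower that had a promoter, 5 held them. The 250 bases before a start with a match are shown for 5 of the genes lower in PINT shRNA1, 5′ to 3′ on the gene's strand, with the match on either strand in capitals. No match of another motif searched here overlaps it. ASNS and GARS have a second RefSeq start each (chr7:97872166-97872415, minus strand, and chr7:30594485-30594734, plus strand), whose 250 bases hold no match and are not printed. A match describes the letters only and shows no binding.
CHAC1 (chr15:40953221-40953470, plus strand): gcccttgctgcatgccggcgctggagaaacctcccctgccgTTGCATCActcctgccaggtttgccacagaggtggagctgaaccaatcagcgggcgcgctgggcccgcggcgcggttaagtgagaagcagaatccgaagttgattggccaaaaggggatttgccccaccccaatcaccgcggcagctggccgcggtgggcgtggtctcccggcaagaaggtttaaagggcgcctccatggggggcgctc
ASNS (chr7:97872409-97872658, minus strand): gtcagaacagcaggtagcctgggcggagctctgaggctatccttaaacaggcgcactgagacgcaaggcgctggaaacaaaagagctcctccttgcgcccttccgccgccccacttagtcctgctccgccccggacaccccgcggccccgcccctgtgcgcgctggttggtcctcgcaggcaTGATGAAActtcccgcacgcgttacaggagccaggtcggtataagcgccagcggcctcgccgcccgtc
AARS (chr16:70289507-70289756, minus strand): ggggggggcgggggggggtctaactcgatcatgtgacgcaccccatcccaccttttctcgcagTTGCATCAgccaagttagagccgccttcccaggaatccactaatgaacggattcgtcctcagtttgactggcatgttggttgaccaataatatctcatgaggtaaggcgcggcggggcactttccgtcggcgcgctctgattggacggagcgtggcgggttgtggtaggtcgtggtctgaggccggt
IARS (chr9:92293698-92293947, minus strand): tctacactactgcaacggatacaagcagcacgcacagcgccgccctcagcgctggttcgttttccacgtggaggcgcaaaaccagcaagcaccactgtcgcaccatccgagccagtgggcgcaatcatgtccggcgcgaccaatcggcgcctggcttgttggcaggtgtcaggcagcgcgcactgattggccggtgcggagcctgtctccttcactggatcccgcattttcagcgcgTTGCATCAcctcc
GARS (chr7:30594628-30594877, plus strand): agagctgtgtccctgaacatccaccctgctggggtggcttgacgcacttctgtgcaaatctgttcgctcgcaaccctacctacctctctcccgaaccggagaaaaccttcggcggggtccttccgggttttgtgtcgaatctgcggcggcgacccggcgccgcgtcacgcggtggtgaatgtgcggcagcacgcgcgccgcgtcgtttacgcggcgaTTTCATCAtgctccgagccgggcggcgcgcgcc
The match begins 209 bases before the start in CHAC1, 68 in ASNS, 187 in AARS, 13 in IARS and 33 in GARS, where GARS, for glycine, was lower by a similar amount to IARS (-0.47 ± 0.0635).

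Sterol genes were lower or not called, and fatty acid genes were called in both directions. Of 25 tested genes of cholesterol synthesis and uptake 14 were lower and 0 higher, with a median of -0.41. MSMO1, a sterol oxidase, was at 59.6, 60.1 and 59.95 FPKM in control and at 34.2, 36.7 and 33.3 in PINT shRNA1, and HSD17B7, a later enzyme, at 8.2, 7.71 and 7.82 FPKM in control and at 3.51, 3.88 and 4.1 in PINT shRNA1, each with separate groups (-0.78 ± 0.0489 and -0.96 ± 0.0805). SREBF2, the transcription factor of the pathway, went from 23.8 ± 0.957 to 16.8 ± 0.746 FPKM (-0.48 ± 0.0584). The sterol element letters TCACNCCAC were in 1 of 18 promoters of these genes (5.56%), against 1.39% of all symbols. Among 27 fatty acid genes, the desaturases SCD (-0.58 ± 0.0551) and FADS2 (-0.67 ± 0.0877) and the elongase ELOVL7 (-0.60 ± 0.0967) were among 5 that were lower (18.52%, beside 8.77% of all genes), a count that became 3 without PINT shRNA1 replicate 3. GPAM, which starts glycerolipid synthesis, rose (0.68 ± 0.086) and was 1 of 4 higher (14.81%, near the 13.7% of all genes). The 4 became 1 or 2 when control replicate 1 or PINT shRNA1 replicate 1 or 3 was left out.

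Iron storage genes and some antioxidant genes were higher, and some other redox genes were lower. FTH1, the ferritin heavy chain, was at 621, 689 and 639 FPKM in control and at 1272, 1179.6 and 1146 in PINT shRNA1. FTL, the light chain, was at 689, 663 and 635 FPKM in control and at 875, 811 and 934 in PINT shRNA1. TFRC, the transferrin receptor that imports iron, was at 103, 103 and 113 FPKM in control and at 212, 205 and 205 in PINT shRNA1. For each of the 3 genes every PINT shRNA1 library exceeded every control library, with log2 fold changes of 0.88 ± 0.0562, 0.40 ± 0.0592 and 0.96 ± 0.048. SLC40A1, the iron exporter ferroportin, went from 1.49 ± 0.161 to 0.826 ± 0.118 FPKM (-0.59 ± 0.124), a call that ended in 6 of 20 alternatives. HMOX1, which degrades haem and releases iron, was at 2.86, 2.36 and 1.63 FPKM in control and at 8.68, 5.87 and 7.004 in PINT shRNA1 (1.47 ± 0.202), and SRXN1, which reduces oxidised peroxiredoxin, at 24.4, 25 and 23.2 FPKM in control and at 48.4, 45.6 and 47.3 in PINT shRNA1 (0.95 ± 0.0503).

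Of 30 tested antioxidant and NRF2-type genes, 9 were higher and 4 lower, with a median of 0.018; the 9 became 5 without PINT shRNA1 replicate 3. GCLM, the modifier subunit of glutathione synthesis (0.50 ± 0.0699), rose with those above. The lower members were SLC7A11, which supplies cystine for glutathione, the metallothionein gene MT2A (-0.74 ± 0.123), glutathione reductase GSR (-0.44 ± 0.0525) and the pentose phosphate enzyme PGD (-0.41 ± 0.0508). Aldehyde and xenobiotic genes were lower in 9 of 28 tested members and higher in 2, with a median of -0.18; the 9 became 4 or 5 when any PINT shRNA1 library was left out. ALDH1A3, which makes retinoic acid, was at 159.9, 165 and 184 FPKM in control and at 86.4, 85.3 and 82 in PINT shRNA1, and ALDH3A1, which oxidises aromatic and aliphatic aldehydes, at 17.6, 20.8 and 18.7 FPKM in control and at 6.002, 6.31 and 6.48 in PINT shRNA1. Their groups were far apart (-1.001 ± 0.0603 and -1.53 ± 0.0785). EPHX1, a microsomal epoxide hydrolase, rose (0.46 ± 0.0629).

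Keratins moved in both directions, with the abundant ones lower. Keratins pair into the intermediate filaments of epithelial cells, KRT8 with KRT18 in simple epithelia and KRT5 in basal layers. KRT8 was at 1260.3, 1154 and 988 FPKM in control and at 659.8, 597 and 589 in PINT shRNA1. KRT18 was at 871, 870.3 and 833 FPKM in control and at 486, 465 and 502 in PINT shRNA1. KRT5 was at 586, 552 and 528 FPKM in control and at 294, 280.3 and 297 in PINT shRNA1. All 3 were lower in every PINT shRNA1 library, at -0.88 ± 0.0928, -0.83 ± 0.0405 and -0.93 ± 0.0484. KRT80 (-1.34 ± 0.151) and KRT19 (-0.43 ± 0.0573) were lower too, and KRT13, at -0.29 ± 0.0603 and not called in 5 of 20 alternatives, made the sixth. The 6 members called higher of 15 tested were below 10 FPKM in control except KRT23, which went from 154 ± 8.82 to 224 ± 10.4 FPKM (0.54 ± 0.056). KRT81, a hair keratin, was at 9.35, 9.1 and 9.23 FPKM in control and at 22.3, 18.6 and 22.4 in PINT shRNA1, and KRT7, a simple keratin of ducts, at 2.74, 3.11 and 3.66 FPKM in control and at 6.27, 7.74 and 8.23 in PINT shRNA1, again without overlap (1.15 ± 0.0824 and 1.11 ± 0.135). The summed keratin level of a library was 2855 to 3236 FPKM over the control group and 1847 to 1975 over PINT shRNA1. Cornified envelope and skin-type genes were higher in 4 of 11 tested members and lower in 0. Of 8 epidermal markers 3 were tested. KRT5 was lower, as given above. KRT10 was higher, at 4.79, 5.32 and 4.95 FPKM in control and 6.9, 6.32 and 7.12 in PINT shRNA1, a call that ended in 3 of 20 alternatives. FLG, at means of 0.983 and 0.826 FPKM, was not called. KRT14 reached at most 0.134 FPKM, and KRT1, IVL, LOR and TP63 were at or near 0 in all 6 libraries.

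Junction genes were lower more often than higher. CLDN1, a sealing claudin of tight junctions, was at 32.8, 30.4 and 30.2 FPKM in control and at 8.55, 8.51 and 8.13 in PINT shRNA1 (-1.83 ± 0.0576). Of 22 tested tight junction genes 8 were lower (5 without PINT shRNA1 replicate 1) and 3 higher (1 without control replicate 1 or any PINT shRNA1 library), with a median of -0.23. MARVELD3 (-0.74 ± 0.118), a tight junction membrane protein, and INADL (-0.68 ± 0.108), a polarity scaffold, were lower, and CXADR, a junctional adhesion receptor, rose (0.50 ± 0.0497). PERP, a desmosomal membrane protein, was at 161, 155 and 159 FPKM in control and at 79.6, 78 and 78.2 in PINT shRNA1, and PPL, the plakin periplakin, at 17.3, 27.1 and 25.8 FPKM in control and at 11.5, 11.4 and 12.2 in PINT shRNA1. Both had separate groups (-1.01 ± 0.0355 and -0.95 ± 0.163). DSP, the desmosome plaque protein (-0.40 ± 0.0357), and JUP, plakoglobin (-0.45 ± 0.0531), belonged to the 8 of 21 adherens junction and desmosome genes that were lower, beside 4 that were higher, 1 or 2 of them still called when control replicate 1 or 2 or any PINT shRNA1 library was left out. CDH1, E-cadherin, was at 6.8, 5.65 and 6.98 FPKM in control and 6.32, 6.56 and 6.17 in PINT shRNA1, where the groups overlapped.

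Integrins and laminins, which join epithelium to the basement membrane, had members that were lower and others that were higher. ITGB8, which activates latent TGF-beta, was at 9.09, 8.4 and 8.41 FPKM in control and at 3.13, 2.79 and 2.73 in PINT shRNA1. ITGB4, the hemidesmosome subunit, was at 52.5, 50.7 and 47.6 FPKM in control and at 26.4, 26.3 and 29.3 in PINT shRNA1. ITGA3, a laminin-binding subunit, was at 37.2, 36.5 and 37.3 FPKM in control and at 21.8, 25.2 and 24.4 in PINT shRNA1. These were lower in every PINT shRNA1 library (-1.43 ± 0.0819, -0.87 ± 0.0635 and -0.63 ± 0.0637), as was ITGA6, the partner of ITGB4 (-0.36 ± 0.0521). ITGA5, the fibronectin receptor subunit (0.59 ± 0.0779), ITGA7, a laminin receptor of muscle (0.74 ± 0.115), and ITGAV (0.29 ± 0.0499) were higher, making 6 lower and 3 higher of 16 tested. Among 24 basement membrane and matrix genes 8 were lower and 8 higher, each count 4 or 5 when most single libraries were left out. The laminin chain genes LAMA3 (-0.67 ± 0.103) and LAMB3 (-0.29 ± 0.0808) were lower, although the call of LAMB3 ended in 9 of 20 alternatives, 5 of them leaving out 1 library. LAMB1, a chain of other laminins, was higher (0.60 ± 0.0834), and COL7A1, the anchoring fibril collagen, was at 2.08, 2.43 and 1.85 FPKM in control and at 6.24, 5.94 and 6.3 in PINT shRNA1, well above control in every library (1.35 ± 0.103).

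Secreted proteases and their inhibitors also differed in both directions, 9 higher and 6 lower of 35 tested, the 9 becoming 5 without PINT shRNA1 replicate 1 or 3. MMP9, a gelatinase, was at 0.762, 0.738 and 0.808 FPKM in control and at 9.22, 10.5 and 11.4 in PINT shRNA1 (3.09 ± 0.101), and MMP14, a membrane-bound matrix metalloproteinase, went from 15.4 ± 0.75 to 22.7 ± 0.507 FPKM (0.54 ± 0.0564). TIMP2, an inhibitor of metalloproteinases, was at 48.3, 63.1 and 63.1 FPKM in control and at 17.7, 20.4 and 30.7 in PINT shRNA1, with a wide PINT shRNA1 range that stayed below control (-1.35 ± 0.209), while TIMP1 rose (0.55 ± 0.0779). PLAT, tissue plasminogen activator, was at 3.25, 2.55 and 2.44 FPKM in control and at 6.25, 4.76 and 5.05 in PINT shRNA1 (0.85 ± 0.139). In the pair with LPS the log2 fold change of PLAT was -0.028. The AP-1 letters TGANTCA were in 4 of 23 promoters of the list (17.4%), against 9.37% of all symbols, but in 0 of the 6 called higher and 1 of the 2 called lower.

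YAP and TEAD target genes split, with the best known ones lower. YAP1 is a coactivator that enters the nucleus when Hippo kinases are inactive and works through TEAD factors. CTGF, a matricellular growth factor, was at 13.2, 13.5 and 13.2 FPKM in control and at 4.51, 3.69 and 3.93 in PINT shRNA1. CYR61, its close relative, was at 28.1, 27.2 and 29 FPKM in control and at 11, 10.3 and 10.8 in PINT shRNA1. ANKRD1, an ankyrin repeat protein, was at 138, 144 and 145 FPKM in control and at 95.1, 90.5 and 85.9 in PINT shRNA1. The 3 genes were lower in every PINT shRNA1 library (-1.61 ± 0.0835, -1.35 ± 0.0546 and -0.65 ± 0.0498). Of 26 tested targets 10 were lower and 6 higher, with a median of -0.042, and the higher ones included ASAP1, a GTPase-activating protein of cell edges (0.61 ± 0.0514), NT5E, the ectonucleotidase CD73 (0.57 ± 0.068), FOXF2 (0.60 ± 0.086) and EDN1, endothelin (0.62 ± 0.0944). In the Hippo pathway itself YAP1 was at 82.4, 76.3 and 95.5 FPKM in control and at 57.6, 60.6 and 59.2 in PINT shRNA1 (-0.51 ± 0.0824), and VGLL4, which competes with YAP for TEAD, at 8.51, 9.08 and 8.3 FPKM in control and at 19.1, 20.9 and 20.6 in PINT shRNA1 (1.18 ± 0.0642). SAV1, a Hippo scaffold, was lower (-0.57 ± 0.0771), and the atypical cadherin gene FAT1 was higher (0.65 ± 0.0943); the list had 5 members called each way of 23 tested.

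The TEAD letters GGAATG, on either strand, were in 13 of the 20 target genes with a promoter in the table (65.0%), against 16.7% of all symbols, and in 7 of the 8 called lower and 2 of the 5 called higher. CYR61 had no promoter entry. The 250 bases before a start with a match are printed for 4 lower targets, with each match in capitals, and no match of another searched motif overlaps them.
CTGF (chr6:131951373-131951622, minus strand): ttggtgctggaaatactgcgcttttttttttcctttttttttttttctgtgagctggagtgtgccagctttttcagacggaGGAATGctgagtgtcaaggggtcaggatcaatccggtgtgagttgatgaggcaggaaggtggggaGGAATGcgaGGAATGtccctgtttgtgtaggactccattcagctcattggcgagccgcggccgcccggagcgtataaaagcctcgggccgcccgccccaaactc
ANKRD1 (chr10:90921088-90921337, minus strand): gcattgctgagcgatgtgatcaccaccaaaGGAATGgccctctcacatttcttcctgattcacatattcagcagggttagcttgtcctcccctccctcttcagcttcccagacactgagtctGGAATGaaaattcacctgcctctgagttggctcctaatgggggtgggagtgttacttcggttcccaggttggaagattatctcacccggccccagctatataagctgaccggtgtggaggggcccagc
AJUBA (chr14:22976843-22977092, minus strand): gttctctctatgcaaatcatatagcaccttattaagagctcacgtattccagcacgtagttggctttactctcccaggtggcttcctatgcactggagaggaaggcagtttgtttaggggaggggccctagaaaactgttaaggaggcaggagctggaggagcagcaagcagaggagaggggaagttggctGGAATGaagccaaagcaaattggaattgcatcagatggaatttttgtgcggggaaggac
DCBLD2 (chr3:98901696-98901945, minus strand): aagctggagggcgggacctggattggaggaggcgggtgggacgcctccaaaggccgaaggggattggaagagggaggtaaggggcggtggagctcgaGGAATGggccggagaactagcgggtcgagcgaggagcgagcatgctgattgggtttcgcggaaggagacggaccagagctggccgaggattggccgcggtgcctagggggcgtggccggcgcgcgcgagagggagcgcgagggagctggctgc
CTGF holds 3 matches, which begin 169, 104 and 95 bases before the start, and ANKRD1 holds 2, at 220 and 128, whereas AJUBA holds 1 at 59 and DCBLD2 1 at 153. The 250 bases before another RefSeq start of AJUBA (chr14:22982552-22982801, minus strand) hold none. AJUBA, a LIM-domain regulator of Hippo kinases, was at 13.6, 15.7 and 11.1 FPKM in control and at 4.88, 8.37 and 5.75 in PINT shRNA1, and DCBLD2, a membrane receptor, at 97, 95.7 and 97.4 FPKM in control and at 58.2, 55.9 and 55.4 in PINT shRNA1. DCBLD2 had tight groups (-0.77 ± 0.0387), while the wider ranges of AJUBA still did not overlap (-1.05 ± 0.205) and its call ended without PINT shRNA1 replicate 3.

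Genes of growth factor signalling and the cell cycle showed the same mixture. ERK feedback genes are transcribed when the MAP kinase ERK is active and then restrain it, and 9 of 19 tested were lower and 1 higher (0 without any library other than PINT shRNA1 replicate 2), with a median of -0.21. DUSP4, a nuclear phosphatase of ERK, was at 12.2, 11.3 and 10.9 FPKM in control and at 6.82, 6.69 and 7.11 in PINT shRNA1, and ETV4, an ETS factor, at 74.4, 68.1 and 67.3 FPKM in control and at 43.8, 42.6 and 45.1 in PINT shRNA1. Both had separate groups (-0.69 ± 0.0691 and -0.67 ± 0.0534), and DUSP7 (-0.63 ± 0.0719), SPRED1 (-0.42 ± 0.0646) and DUSP6 (-0.21 ± 0.0466) were lower as well, with DUSP6 no longer called in 7 of 20 alternatives. EPHA2, an ephrin receptor kinase, was lower (-0.58 ± 0.0769), and EPHA4, at 34.8, 29.8 and 29.8 FPKM in control and at 16.5, 18.8 and 9.95 in PINT shRNA1, too (-1.08 ± 0.221), although its call ended without control replicate 1. EGFR was higher (0.30 ± 0.081; no longer called in 7 of 20 alternatives), as was ERRFI1, its feedback inhibitor (0.51 ± 0.0752), among 4 of 11 ERBB genes called higher (1 or 2 when control replicate 1 or 2 or any PINT shRNA1 library was left out).

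CCND1, cyclin D1, was at 578, 577 and 566 FPKM in control and at 322, 319.9 and 317 in PINT shRNA1. CDKN1A, the CDK inhibitor p21, was at 33.1, 32.5 and 30.5 FPKM in control and at 13.5, 11.8 and 14.3 in PINT shRNA1. CDKN2D, the CDK4 and CDK6 inhibitor p19, was at 2.78, 2.82 and 2.91 FPKM in control and at 5.11, 5.35 and 5.19 in PINT shRNA1. CCND1 and CDKN1A were lower and CDKN2D higher in every PINT shRNA1 library (-0.84 ± 0.0301, -1.25 ± 0.0805 and 0.78 ± 0.0735), within a list of 28 of which 7 were higher and 4 lower, the 7 becoming 3 or 4 without control replicate 1 or any PINT shRNA1 library. Wnt target genes were higher and lower in equal number, 6 and 6 of 25. The Wnt feedback genes AXIN2 (0.38 ± 0.0382), NKD1 (0.37 ± 0.0465) and SP5 (0.59 ± 0.0937) rose, while LGR6 (-0.72 ± 0.111), an R-spondin receptor, and ASCL2 (-0.61 ± 0.0902), a factor of intestinal stem cells, fell. Of the 21 Notch genes tested, 5 were lower, among them the coactivator MAML2 (-0.66 ± 0.0871) and the repressor HES2 (-0.68 ± 0.107), and 3 remained called without control replicate 1 or 3 or any PINT shRNA1 library.

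Regulators of epithelial state moved toward the mesenchymal side for some genes and not for others. ZEB1, a repressor of epithelial genes, was at 1.63, 1.89 and 1.36 FPKM in control and at 7.1, 6.07 and 5.13 in PINT shRNA1. ESRP1, an epithelial splicing factor, was at 15, 16.7 and 15.9 FPKM in control and at 8.24, 8.12 and 7.996 in PINT shRNA1. VIM, vimentin, was at 100.4, 114 and 121 FPKM in control and at 160.1, 149.6 and 153 in PINT shRNA1. S100A4, a calcium-binding protein of motile cells, was at 293, 458 and 434 FPKM in control and at 177, 165 and 185 in PINT shRNA1. ZEB1 and VIM were higher (1.63 ± 0.146 and 0.47 ± 0.0715), ESRP1 was lower (-0.92 ± 0.063), and S100A4, counted among mesenchymal genes, was lower as well (-1.14 ± 0.164). Of 14 tested genes 5 were higher and 4 lower, and CDH1 was not among them. Brush border and colon epithelial genes were lower in 8 of 25 tested members (5 without control replicate 2 or PINT shRNA1 replicate 1) and higher in 1 (2 without control replicate 2 or 3). VIL1, villin of the brush border, was at 11.4, 11.1 and 11.2 FPKM in control and at 3.99, 4.11 and 4.53 in PINT shRNA1 (-1.32 ± 0.0712), EPS8, its partner in microvilli, was lower (-0.67 ± 0.127), and MUC13, a membrane mucin, was the member that rose (0.54 ± 0.0589). Actin cytoskeleton genes were lower in 12 of 40 and higher in 6 (2 or 3 when a library other than control replicate 3 was left out), with CNN2, calponin (-0.68 ± 0.0863), and ACTN1 and ACTN4, the alpha-actinins (-0.49 ± 0.0468 and -0.53 ± 0.0976), lower and TPM2, a tropomyosin (0.90 ± 0.0663), and RHOB (0.73 ± 0.0417) higher.

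Chromatin and RNA-sensing genes were considered because of the EZH2 link and because a hairpin vector was used. JARID2, an accessory factor of Polycomb repressive complex 2, was at 3.48, 3.93 and 3.32 FPKM in control and at 7.37, 7.19 and 7.65 in PINT shRNA1, without overlap (0.96 ± 0.0838). Of 33 Polycomb complex members 4, JARID2 included, were higher and 4 lower (12.12% each, beside 13.7% and 8.77% of all genes). The higher count became 2 without control replicate 2 or PINT shRNA1 replicate 1 or 3. The lower count became 1 or 2 without any library but PINT shRNA1 replicate 3. Of 40 DNA and histone modifying enzymes 7 were higher (17.5%, beside 13.7% of all genes) and 0 lower, led by the H3K9 demethylase KDM3A (0.74 ± 0.104) and by KDM4A (0.58 ± 0.0948), with the H3K79 methyltransferase DOT1L (0.58 ± 0.0819). For hairpin processing, XPO5, which exports hairpin precursors, rose (0.43 ± 0.0414), and so did the nuclease DROSHA (0.46 ± 0.092), 2 of 15 tested (13.33%, beside 13.7% of all genes), with DICER1 and the Argonaute genes not called and 1 of the 2 left without control replicate 1 or PINT shRNA1 replicate 3. Interferon-stimulated and RNA-sensing genes were higher in 8 of 34 tested members (4 or 5 without control replicate 1 or 3 or PINT shRNA1 replicate 1 or 3) and lower in 1. ISG15, a ubiquitin-like modifier, was at 10.5, 9.97 and 8.79 FPKM in control and at 15.2, 16.1 and 19.6 in PINT shRNA1, and IRF9, a subunit of the interferon-stimulated factor, at 1.67, 1.98 and 1.54 FPKM in control and at 2.99, 3.41 and 2.89 in PINT shRNA1, with separate groups (0.76 ± 0.112 and 0.69 ± 0.115). IFIH1, a sensor of double-stranded RNA, was the member that fell (-0.39 ± 0.056). HLA-B rose among class I antigen presentation genes (0.82 ± 0.118), 5 of 20 being higher, or 3 without control replicate 3 or PINT shRNA1 replicate 2 or 3.

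Among the most abundant transcripts the largest shifts in level concerned the mitochondrial genome and housekeeping genes. RPL41, a ribosomal protein gene, was at 1488, 1554 and 1530.3 FPKM in control and at 829, 792 and 850.4 in PINT shRNA1, and EEF1A1, an elongation factor, at 2359, 2554 and 2464 FPKM in control and at 1873, 1929 and 1926 in PINT shRNA1, each lower in all 3 PINT shRNA1 libraries (-0.89 ± 0.0387 and -0.36 ± 0.0389), though EEF1A1 was no longer called after quantile normalization or in a fit of all 12 libraries. MT-RNR2, the large mitochondrial ribosomal RNA, went from 8819.6 ± 254 to 5816 ± 182 FPKM (-0.60 ± 0.0386), MT-CO2, a cytochrome oxidase subunit, from 10124 ± 146 to 7799 ± 169 FPKM (-0.38 ± 0.0321), and MT-ND1, a complex I subunit, rose from 3787 ± 49.1 to 4569.8 ± 132 FPKM (0.27 ± 0.034) but changed sign after quantile normalization. The mitochondrial share of all FPKM was 24.82% to 25.93% in control and 22.89% to 23.68% in PINT shRNA1. After quantile normalization MT-RNR2 and MT-CO2 moved by over 1.5 times, and the calls of MT-CO2 and MT-ND1 ended when genes of low FPKM were also tested. MPZL2, an epithelial adhesion molecule, went from 271 ± 2.41 to 376 ± 4.11 FPKM (0.47 ± 0.0306).

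More genes were detected in the libraries labelled PINT shRNA1. Genes above 0 FPKM numbered 27536 to 28430 in control and 30725 to 31159 in PINT shRNA1. PINT shRNA1 replicate 2, at a relative depth of 0.914, had 30898, and control replicate 1, at a depth of 1, had 28430. The gap was present in each class: 15308 to 15522 against 16303 to 16599 protein-coding genes, 5144 to 5388 against 5929 to 5935 long non-coding genes, and 3958 to 4173 against 4765 to 4911 pseudogenes. Genes at 0.5 FPKM or more numbered 15995 to 16164 and 16292 to 16511. By class the tested genes were called higher in 15.0% of protein-coding genes, 10.52% of long non-coding genes and 9.117% of pseudogenes, and lower in 10.1%, 5.605% and 3.007%. The part of this detection difference in the calls was not tested.

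**Figure D3:**
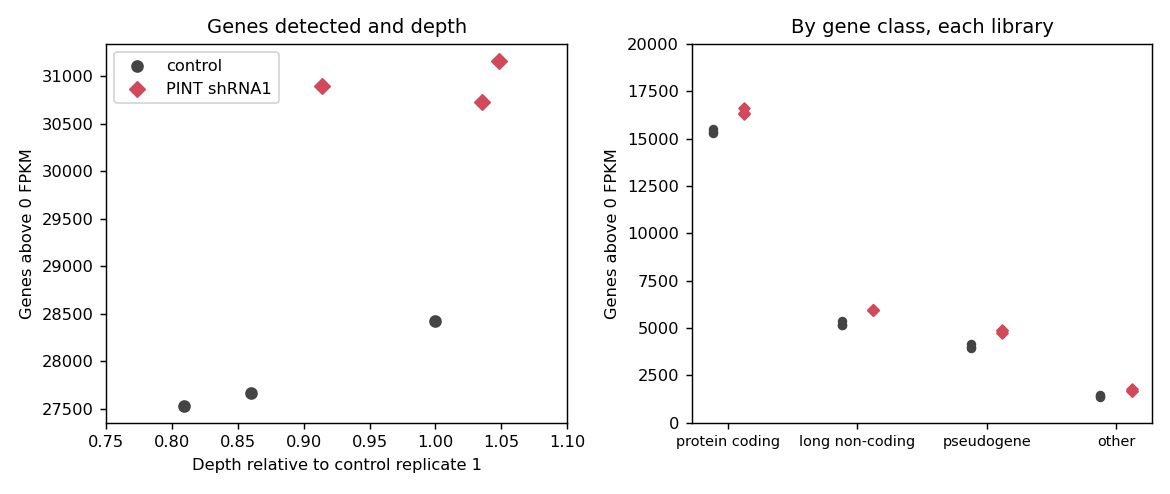
Left, genes above 0 FPKM against depth relative to control replicate 1 in each library, and right, the same count by gene class, circles for control and diamonds for PINT shRNA1. At overlapping estimated depths the PINT shRNA1 libraries, at 30725 to 31159 genes, lie above the control libraries, at 27536 to 28430.

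The median log2 fold change of the genes of a chromosome ran from -0.0013 to 0.125 over the 22 autosomes, so no whole autosome was shifted by more than that. Among autosomes chromosome 19 had the highest median and, of 1087 genes tested, 174 were higher and 48 lower. It carries many zinc finger genes, a family looked at after these values were seen. Of 194 tested genes with a ZNF number on chromosome 19, 27 were higher (13.9%, near the share of all genes) and 0 lower with a median of 0.16. Of 233 elsewhere 30 were higher (12.9%) and 8 lower (3.43%) with a median of 0.096. The other 893 genes of chromosome 19 had a median of 0.1165, with 16.5% higher and 5.38% lower. Outside the autosomes, genes that the annotation lists on both X and Y were counted under Y. The values for Y therefore do not describe genes of Y alone, and the number of shared genes was not counted. Y in this sense had a median of 0.2107, with 8 of 21 genes higher (38.1%) and 1 lower (4.76%). Of 37 mitochondrial genes 4 were higher (10.8%) and 10 lower (27.0%).

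The same genes were then read in the pair of groups with LPS, which shares no library with the comparison above. In that pair 4736 genes were called (28.9%), or 2868, 2947 and 3014 without replicate 1, 2 or 3 of hairpin and LPS. Of the 2246 genes called higher without LPS, 2175 (96.84%) had the same sign with LPS and 1530 (68.12%) were called higher there, beside 17.6% of all genes. Of the 1439 called lower, 1398 (97.15%) had the same sign and 1038 (72.13%) were called lower, beside 11.3%. Across the called genes, which are not independent replicates, Pearson's r of the 2 sets of log2 fold changes was 0.9029, and over all 16403 genes tested it was 0.7125, given as descriptions without a test. Several large differences had similar values: PSAT1 was at -1.54 with LPS, LRRC58 at -1.81, DCLK1 at -1.38, KRTAP3-1 at 2.24 and COL7A1 at 1.63. Of the 30 ATF4-type genes 15 were lower and 3 higher with LPS, with a median of -0.27, where 16 and 0 were called without it. Serine and one-carbon enzymes differed more between the pairs, with 4 lower, 3 higher and a median of 0.0040 with LPS; these differences of the lists were not tested.

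**Figure D4:**
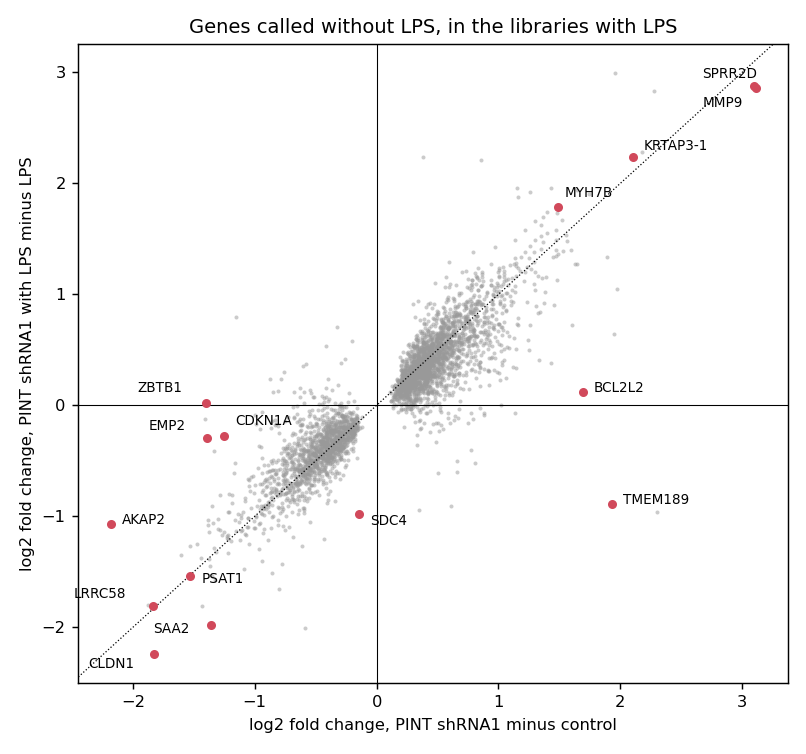
Log2 fold change of each of the 3685 genes called without LPS (x axis, PINT shRNA1 minus control) against its value in the libraries with LPS (y axis), with the line of equality dotted. Most points lie along the line, and BCL2L2, TMEM189, ZBTB1, EMP2, CDKN1A and SDC4 are marked off it.

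Few genes passed the test of the difference between the 2 pairs itself, an interaction term in a limma fit of all 12 libraries. It called 21 of 16403 genes (0.128% called), among them CCL2, CCL7, CCL20, CXCL1, ICAM1 and LTB, cytokine and adhesion genes known to respond to NF-kB, named here after their values were seen. With LPS their log2 fold changes ran from -1.57 (CCL7) to -0.57 (LTB). Genes of other kinds were called as well, among them YTHDF2, P4HA2 and UPK3BL. YTHDF2 was at 0.38 without LPS and 2.23 with it. EMP2 was at 17.1, 16.8 and 17.7 FPKM in LPS and 14.3, 14.1 and 13.5 with hairpin and LPS, so its difference shrank from -1.39 ± 0.0678 to -0.29. SAA2 was at 136, 138 and 143 and 33.4, 36.5 and 34.5, and its difference grew from -1.36 ± 0.0532 to -1.98. The difference in EGR1, an immediate-early factor, was -0.48 ± 0.0464 without LPS and -0.046 with it. Genes with opposite calls in the pairs were 3 among those higher without LPS, PEX10, TNFAIP2 and ZNF140, and 1 among those lower, AC011933.1, named here after their values were seen. ZBTB1, a transcriptional repressor, was at 9.87, 14.6 and 12.2 FPKM in control and at 3.22, 5.26 and 4.54 in PINT shRNA1 (-1.40 ± 0.197) and at 13.3, 4.39 and 2.6 and 6.09, 4.65 and 5.95 in the pair with LPS (0.020), but the interaction did not call it. CDKN1A (-0.27 with LPS) and PHLDA1 (-0.11 with LPS) were not called by it either.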

How the data were processed

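RNA was extracted with Trizol, per the labels' protocols. The FPKM values, in 1 table of the whole series, are as the authors deposited them, and fastp, HISAT2 2.1.0, StringTie 1.3.4d and GRCh37 (hg19) are named in the submitters' processing notes, without their settings or strand rule. FPKM keeps no read count, so a count model was not used. The 6 libraries were fitted with limma 3.58.1 in R 4.3.3 on log2(FPKM + 0.5), with an intensity trend and no other scaling, and p-values were adjusted by Benjamini-Hochberg over the 16403 genes tested; they rest on the spread among libraries of a group, which may be technical. The fit was tested on simulated data. A further 6 value columns that match no label were not used.

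Members and lists were chosen with earlier results of these data known. Genes were named by rule: 20 genes at each end of the called log2 fold changes, requiring 2 FPKM on average in the group with more, no overlap of groups and a narrow range within groups; the 10 in each direction with the largest difference in FPKM; the targeted gene and its neighbour; and, from each list discussed, up to 6 members by p and called members of either direction. Genes outside the rule are said to be so, and some genes that meet it are not reported here. Gene classes, exon sharing and transcript length came from GENCODE 29 (GRCh38) by gene identifier, and no hg19 coordinates are given. Same-numbered control and PINT shRNA1 libraries did not deviate together, so the main fit has no block. The alternatives were other scalings, pseudocounts, filters, moderation, weights, a replicate block, all 12 libraries, stricter thresholds and leaving out each library.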

Additional observations from a re-analysis of the deposited data

Results flagged for a closer look

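For 5 of the genes named by rule the difference between the libraries labelled PINT shRNA1 and their controls itself differed between the pair without LPS and the pair with LPS, by the interaction term of a limma fit of all 12 libraries with Benjamini-Hochberg adjustment. The difference of the 2 log2 fold changes, without LPS minus with LPS, was -1.10 for EMP2 (-1.39 against -0.29, adjusted p = 0.000113) and 0.63 for SAA2, whose value was -1.36 without and -1.98 with LPS (adjusted p = 0.00341). For EGR1 it was -0.43 (-0.48 against -0.046, adjusted p = 0.0173). SDC4, syndecan 4, differed by 0.84 (-0.14 without and -0.98 with LPS, adjusted p = 9.07e-06). JAG1, a Notch ligand, differed by 0.46, with 0.31 without and -0.15 with LPS (adjusted p = 0.0408). Over the alternatives the interaction called 21 to 26 genes.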

How the results depend on the processing

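Every named gene that was called kept its direction under the alternatives run, except MT-CO3 (0.013), MT-CO1 (0.030) and MT-ND1 (-0.096) after quantile normalization; over all named genes and settings 7018 values stayed on their side of the threshold, 1134 called ones lost it and 3 reversed. The genes called, 3685 in all, 2246 higher and 1439 lower, numbered 1312, 728 and 584 at an adjusted p under 0.01, and 227, 148 and 79 with an absolute log2 fold change of at least 1. Without the filter 940 were lower. Leaving out 1 library gave 2025 to 2651 called, 1115 to 1589 higher and 904 to 1086 lower; with LPS, 2868 to 4196, 1650 to 2553 and 1191 to 1643, lowest where a library with hairpin and LPS was left out. A replicate block by RNA number left 2033 called, 1199 higher and 834 lower. The deviations of same-numbered libraries from their group means correlated at 0.00275, -0.0164 and -0.0302, so these values show no pairing by number. With the block LINC-PINT stayed at 0.81. The cause of these shifts was not tested, beyond fewer libraries. All 12 libraries gave 4690 calls. Low genes are limited by depth, which is unknown in reads.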

Other observations

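Glycolytic genes were higher in 7 of 25 tested members and lower in 3. ENO2, the neuronal enolase, went from 11.2 ± 0.324 to 20.8 ± 0.949 FPKM (0.86 ± 0.0582), and ALDOC, an aldolase, from 2.09 ± 0.167 to 3.64 ± 0.277 FPKM (0.68 ± 0.0988), while the glucose transporter SLC2A3 fell (-0.77 ± 0.0372). The 7 became 4 without control replicate 3 and 3 without PINT shRNA1 replicate 3, and the 3 became 1 when any library but PINT shRNA1 replicate 3 was left out. Among 16 BCL2 family genes 3 were higher and 0 lower (1 without control replicate 2): beside BCL2L2 these were the BH3-only genes BIK (0.71 ± 0.0852) and BMF (0.63 ± 0.16). Of 30 long non-coding RNAs of the SNHG and LINC type 9 were higher and 1 lower, the 9 becoming 4 under median scaling or quantile normalization, 3 without control replicate 1 or PINT shRNA1 replicate 1 and 4 or 5 without the others but PINT shRNA1 replicate 2. NEAT1, the paraspeckle RNA, went from 17.7 ± 1.04 to 28.6 ± 1.78 FPKM (0.67 ± 0.0692), and HOTAIRM1, which lies in the HOXA cluster, from 22.1 ± 2.3 to 39.1 ± 1.73 FPKM (0.81 ± 0.0838). SLC1A3, a glutamate transporter, went from 1.67 ± 0.0795 to 4.03 ± 0.723 FPKM (1.05 ± 0.134). Of 36 nutrient transporters 5, SLC1A3 included, were higher and 5 lower (13.89% each, beside 13.7% and 8.77% of all genes). The higher count became 2 or 3 without control replicate 2 or 3 or PINT shRNA1 replicate 1 or 3. The lower count became 3 without control replicate 1 or 2 or PINT shRNA1 replicate 1.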
